A study of Rattus norvegicus with 12 samples.

Results

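The genes described here are 9 genes of the podocyte, the epithelial cell that covers the outside of the glomerular capillary. They were taken by name from the 13151 genes in the table of normalized values, namely Nphs1, Cd2ap, Magi2 and Ptpro of the slit diaphragm and foot process, Podxl of the cell surface, Synpo, Actn4 and Nes of the cytoskeleton, and Wt1 of the nucleus. All 9 listed genes were in the table, and all 9 passed the filter on low values.

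Renal cortex RNA was sequenced in male rats aged 32 weeks in 3 groups of 4 rats. Zucker lean (ZL) rats were the untreated lean controls, and Zucker fatty (ZF) rats were the untreated obese model, which lacks a working leptin receptor according to the study's methods, although the deposited design text calls it deficient in leptin. ZF-SGLT2i rats were ZF rats that received canagliflozin, an inhibitor of the sodium-glucose cotransporter 2 (SGLT2), at 10 mg/kg/day mixed into the diet for 8 weeks from the age of 24 weeks. The study calls the sequenced obese controls ZF-NT, its name for the untreated arm of the drug trial, whereas its methods describe ZL rats only in a time course whose rats had wedge biopsies of the kidney at younger ages. If the ZL rats came from that time course, effects of surgery and of group cannot be told apart in the comparisons with ZL.

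Podocytes send out interlocking foot processes that are joined by the slit diaphragm, a cell junction built around nephrin that is part of the filter holding protein back from the urine. The foot processes are held in shape by an actin cytoskeleton, to which the slit diaphragm is tied by adaptor proteins. Podocytes hardly divide in the adult and respond to a larger glomerulus mainly by enlarging, and mutations in the genes of nephrin, CD2AP and alpha-actinin-4 are known causes of proteinuria.

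Values are given as CPM, a read count divided by the size of its library, where the size was corrected by edgeR's TMM factors. Reads on genes ranged from 8886901 to 12210257 per ZL rat, from 8824980 to 11191377 per ZF rat and from 8914666 to 10293049 per ZF-SGLT2i rat. Of the 9 genes, Wt1 and Magi2 rested on the fewest reads (248 to 400 and 230 to 406 per rat), and Podxl had 5728 to 11195 reads per rat. Each value is an average over whole cortex, in which the number of podocytes, the RNA per podocyte and the RNA of other cells cannot be told apart. Log2 fold changes were fitted with limma on log2(value + 1), and a gene was called at a Benjamini-Hochberg adjusted p under 0.05 over the 11633 genes tested.

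Since 7 of the 9 genes moved together from rat to rat while Cd2ap and Actn4 did not, the stretch of 250 bases before the start is shown for the slit diaphragm gene Nphs1 and for Nes, the gene with the largest difference between ZF and ZL among the 9, with Cd2ap as the contrast. The sequences are from RefSeq on the rat assembly GRCr8 and are written 5′ to 3′ on the plus strand, which is the strand of all 3 genes. The start is the one that the RefSeq promoter table uses, and for Nes and Cd2ap it lies inside the annotated extent of the gene, so that other annotated transcripts may start elsewhere. They lie at chr1:94848011-94848260 for Nphs1, at chr2:175736338-175736587 for Nes and at chr9:25583725-25583974 for Cd2ap. Capitals mark matches to CAGCTG.
Nphs1: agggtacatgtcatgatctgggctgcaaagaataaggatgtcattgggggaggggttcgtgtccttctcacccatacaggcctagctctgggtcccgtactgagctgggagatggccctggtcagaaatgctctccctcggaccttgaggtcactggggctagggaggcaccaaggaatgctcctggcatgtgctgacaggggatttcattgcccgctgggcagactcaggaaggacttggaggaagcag
Nes: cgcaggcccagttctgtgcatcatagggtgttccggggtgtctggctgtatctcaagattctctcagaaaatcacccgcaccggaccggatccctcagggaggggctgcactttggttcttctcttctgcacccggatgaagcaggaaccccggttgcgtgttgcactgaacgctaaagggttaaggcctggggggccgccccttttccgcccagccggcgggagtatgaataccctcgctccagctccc
Cd2ap: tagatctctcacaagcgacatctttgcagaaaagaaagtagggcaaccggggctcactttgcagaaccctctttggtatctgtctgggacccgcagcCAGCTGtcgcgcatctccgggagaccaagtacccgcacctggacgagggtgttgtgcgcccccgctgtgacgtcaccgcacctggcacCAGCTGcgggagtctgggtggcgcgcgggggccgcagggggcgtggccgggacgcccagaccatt

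A promoter window of 300 bases around this start was found for 8 of the 9 genes, all except Actn4. Both strands were searched for the letters TAATTA (LMX1B-type), GTAAACA (FOX-type), CAGCTG (an E-box of the TCF21 type) and GTGGGAG (WT1-type), none of which overlapped another in these windows. Only CAGCTG was found, in Cd2ap alone, with its matches starting at positions -153 and -65 from the start. Among 33469 rat promoters of the same length, 15.1% held CAGCTG, 5.36% TAATTA, 3.78% GTAAACA and 8.87% GTGGGAG. A match is a description of letters, and the lack of one says only that these letters are not in the window.

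When ZF rats were compared with ZL rats, 4 of the 9 genes were called, all higher in ZF, beside 18.8% of all genes tested (8.19% higher and 10.6% lower). They were Nes, Nphs1, Podxl and Synpo, with rises of 1.26- to 1.81-fold, and the median log2 fold change of the 9 genes was 0.30 against -0.01 over all genes. The other 5 genes, Ptpro, Magi2, Cd2ap, Wt1 and Actn4, did not pass with limma. edgeR called the same 4 genes, and DESeq2 called 5, with Ptpro added. The limma count fell to 2 without ZL rat 1, ZF rat 2 or ZF rat 5. When ZF-SGLT2i rats were compared with ZF rats, 0 of the 9 were called, beside 3.15% of all genes (1.39% higher and 1.75% lower), and the median was -0.01 against 0.01 over all genes. With limma, 2 of the 9 had an unadjusted p under 0.05 there, Magi2 (higher) and Actn4 (lower), beside 17.2% of all genes. edgeR called 0 and DESeq2 called 1, Actn4.

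**Figure D1:**
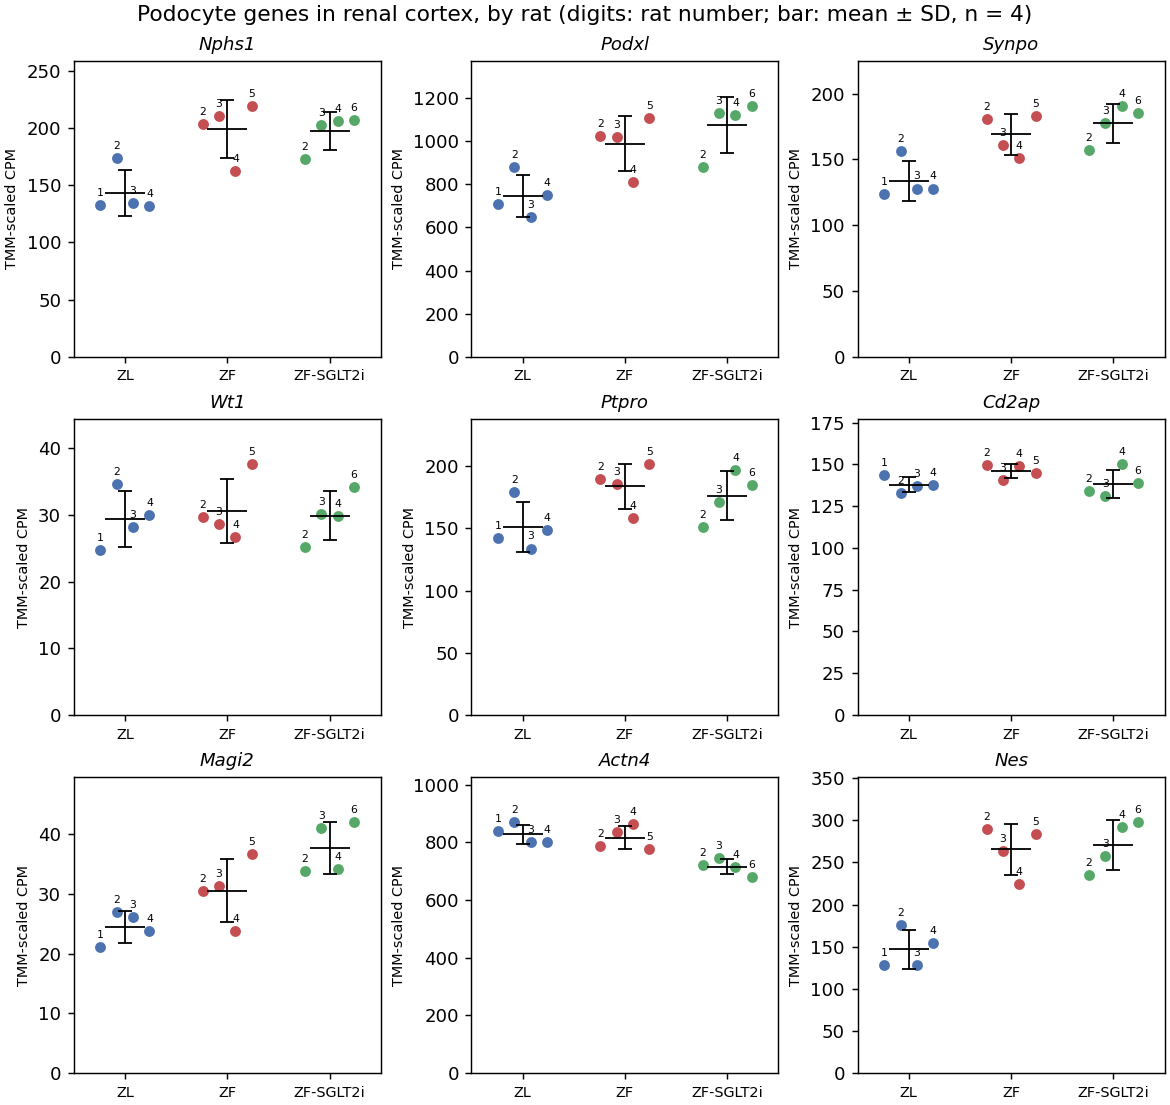
Values of the 9 podocyte genes in each rat, in TMM-scaled CPM on linear axes that start at 0, with the rat number beside each point and bars for the mean ± SD of the 4 rats of a group. Nes is higher in every ZF and ZF-SGLT2i rat than in any ZL rat, whereas the values of Wt1 and Cd2ap overlap among the 3 groups.

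Nphs1 encodes nephrin, the adhesion protein that spans the slit. It was at 133, 173, 134 and 132 CPM in ZL rats 1 to 4, at 203, 211, 162 and 219 CPM in ZF rats 2 to 5, and at 173, 203, 206 and 207 CPM in ZF-SGLT2i rats 2, 3, 4 and 6. ZF rat 4 lay inside the ZL range, and the other 3 ZF rats were above every ZL rat. The mean was 143 ± 20.3 CPM (SD, n = 4) in ZL and 199 ± 25.3 CPM in ZF, a log2 fold change of 0.47 (SE 0.11, limma adjusted p = 0.0093). The exact permutation test of 4 rats against 4, whose smallest two-sided p is 0.0286, gave p = 0.0571.

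In ZF-SGLT2i rats, Nphs1 was at 197 ± 16.4 CPM (n = 4), a log2 fold change of -0.01 against ZF with a 95% interval from -0.24 to 0.22 (limma adjusted p = 0.98). Leaving out a rat moved this estimate between -0.10 and 0.06. Against ZL, the treated rats were higher by 0.47 (limma adjusted p = 0.0060). The interval against ZF is not adjusted over the genes tested and is not a limit of detection. With 4 rats a group, differences inside it and some larger ones could go uncalled.

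Magi2 encodes a scaffold protein that binds nephrin from inside the cell. Its values were 21.1, 27.0, 26.1 and 23.8 CPM in ZL, 30.5, 31.4, 23.8 and 36.7 CPM in ZF, and 33.8, 41.0, 34.2 and 42.0 CPM in ZF-SGLT2i. The ZF group overlapped both others, and all 4 ZF-SGLT2i rats were above all 4 ZL rats. Magi2 had its lowest mean in ZL (24.5 ± 2.66 CPM), an intermediate mean in ZF (30.6 ± 5.32 CPM) and its highest in ZF-SGLT2i (37.8 ± 4.35 CPM). The neighbouring steps did not pass, with a log2 fold change of 0.30 in ZF over ZL (limma adjusted p = 0.105) and 0.30 in ZF-SGLT2i over ZF (95% interval 0.04 to 0.57, limma adjusted p = 0.211). The difference between the outer groups did pass (0.60, SE 0.12, limma adjusted p = 0.0029, exact permutation p = 0.0286). Without ZF rat 4, the lowest of its group, ZF over ZL was 0.41 (limma adjusted p = 0.018) and ZF-SGLT2i over ZF was 0.19 (limma adjusted p = 0.46). Without ZF rat 5, the highest, the same steps were 0.21 (limma adjusted p = 0.26) and 0.40 (limma adjusted p = 0.077).

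Ptpro encodes the receptor phosphatase GLEPP1 of the foot process membrane. It was at 151 ± 19.9 CPM in ZL (134 to 179), 184 ± 18.4 CPM in ZF (158 to 202) and 176 ± 19.7 CPM in ZF-SGLT2i (151 to 197), and the 3 ranges overlapped. The log2 fold change in ZF over ZL was 0.29 (SE 0.10, limma adjusted p = 0.070), which did not pass. It passed without ZL rat 2 (0.37, limma adjusted p = 0.018), without ZF rat 4 (0.36, limma adjusted p = 0.027) and in 3 other alternatives, DESeq2 among them. ZF-SGLT2i differed from ZF by -0.06 (95% interval -0.28 to 0.16).

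Cd2ap encodes an adaptor that ties nephrin to actin and is made in many other cells too. Its values ran from 133 to 144 CPM in ZL, from 141 to 149.6 CPM in ZF and from 131 to 150.1 CPM in ZF-SGLT2i, with overlap in all 3 comparisons. The log2 fold change was 0.08 in ZF over ZL (95% interval -0.03 to 0.20, limma adjusted p = 0.31) and -0.08 in ZF-SGLT2i over ZF (95% interval -0.19 to 0.04, limma adjusted p = 0.49). Its intervals were the narrowest of the 9 genes. Quantile normalization raised the ZF over ZL value to 0.17 (limma adjusted p = 0.030).

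Podxl encodes podocalyxin, the sialic acid-rich protein whose negative charge keeps foot processes apart, which is also made by vascular endothelium. ZL rats had 708, 881, 649.5 and 748 CPM, ZF rats 1021, 1017, 808 and 1107 CPM, and ZF-SGLT2i rats 881, 1130.2, 1119 and 1161 CPM. ZL rat 2 reached the level of the lowest ZF and ZF-SGLT2i rats, and the remaining ZL rats were below all treated rats. The mean rose from 747 ± 98.3 CPM in ZL to 988 ± 127 CPM in ZF (log2 fold change 0.40, SE 0.12, limma adjusted p = 0.033, exact permutation p = 0.0571) and was 1073 ± 129 CPM in ZF-SGLT2i. The treated rats differed from ZF by 0.12 (95% interval -0.14 to 0.38). The call in ZF over ZL was lost in 8 of the 22 alternatives, including the fit of the 2 groups alone (limma adjusted p = 0.051), and leaving out a rat gave values from 0.34 upward.

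Synpo encodes synaptopodin, an actin-binding protein of the foot process. Its values were 123, 157, 128 and 128 CPM in ZL, 180.5, 161, 151 and 183 CPM in ZF, and 157, 178, 190.5 and 185 CPM in ZF-SGLT2i. ZF rat 4 was again the lowest of its group and fell below ZL rat 2. ZF exceeded ZL by 0.34 on the log2 scale (SE 0.088, limma adjusted p = 0.019, exact permutation p = 0.0571), and ZF-SGLT2i exceeded ZL by 0.41 without overlap (limma adjusted p = 0.0044). ZF-SGLT2i and ZF differed by 0.07 (95% interval -0.12 to 0.26). Without ZL rat 1, ZF rat 2 or ZF rat 5 in turn, the ZF over ZL call was lost, with limma adjusted p-values of 0.061, 0.058 and 0.054.

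Nes encodes nestin, an intermediate filament protein that marks podocytes in the adult kidney and is also found in some vascular and stem-like cells. It was at 128, 176, 128 and 154 CPM in ZL, at 289.9, 264, 224 and 284 CPM in ZF, and at 235, 257, 292 and 298 CPM in ZF-SGLT2i. The highest ZL rat was below the lowest rat of both obese groups. Nes was the only one of the 9 whose ZL and ZF values did not overlap, beside 19% of all genes whose values did not overlap (8.67% higher and 10.3% lower in ZF). The mean rose from 147 ± 23.1 to 265 ± 29.8 CPM, 1.81-fold (log2 fold change 0.86, SE 0.11, limma adjusted p = 0.00040, exact permutation p = 0.0286), and the call held in all 22 alternatives. In ZF-SGLT2i the mean was 270.3 ± 29.7 CPM, a difference of 0.03 from ZF (95% interval -0.22 to 0.27, limma adjusted p = 0.94).

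Actn4 encodes alpha-actinin-4, which cross-links actin filaments in podocytes and is made in most other cells of the cortex as well. Its values were 841, 869, 799 and 801 CPM in ZL, 788, 836, 862 and 777 CPM in ZF, and 721, 746, 715 and 680.2 CPM in ZF-SGLT2i. Every treated rat was below every ZF and ZL rat. The ZF and ZL means were 815 ± 40.2 and 827 ± 33.7 CPM (log2 fold change -0.02, limma adjusted p = 0.85), and the treated mean was 715 ± 27.0 CPM. Against ZF the difference was -0.19 (SE 0.063, exact permutation p = 0.0286), which did not pass over all genes with limma (adjusted p = 0.129) and passed with DESeq2 (adjusted p = 0.0087). It was the only one of the 9 without overlap in this comparison, and 11.2% of all genes had none (5.54% higher and 5.63% lower in ZF-SGLT2i). Against ZL the log2 fold change was -0.21 (limma adjusted p = 0.024), a call that was lost in 4 of the 22 alternatives, while the sign turned in 1 more. After quantile normalization that difference was 0.0021, so its direction depends on the scaling.

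Wt1 encodes a zinc finger transcription factor that keeps podocytes differentiated and whose nuclear protein is used to count them. The rats had 24.7, 34.7, 28.1 and 30.0 CPM in ZL, 29.6, 28.7, 26.7 and 37.6 CPM in ZF, and 25.2, 30.1, 29.9 and 34.2 CPM in ZF-SGLT2i. The 3 groups overlapped almost fully. The means were 29.4 ± 4.17, 30.6 ± 4.80 and 29.9 ± 3.67 CPM. The log2 fold change was 0.06 in ZF over ZL (95% interval -0.20 to 0.32, limma adjusted p = 0.79) and -0.03 in ZF-SGLT2i over ZF (95% interval -0.30 to 0.23, limma adjusted p = 0.93). The sign of both estimates turned with single rats left out.

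**Figure D2:**
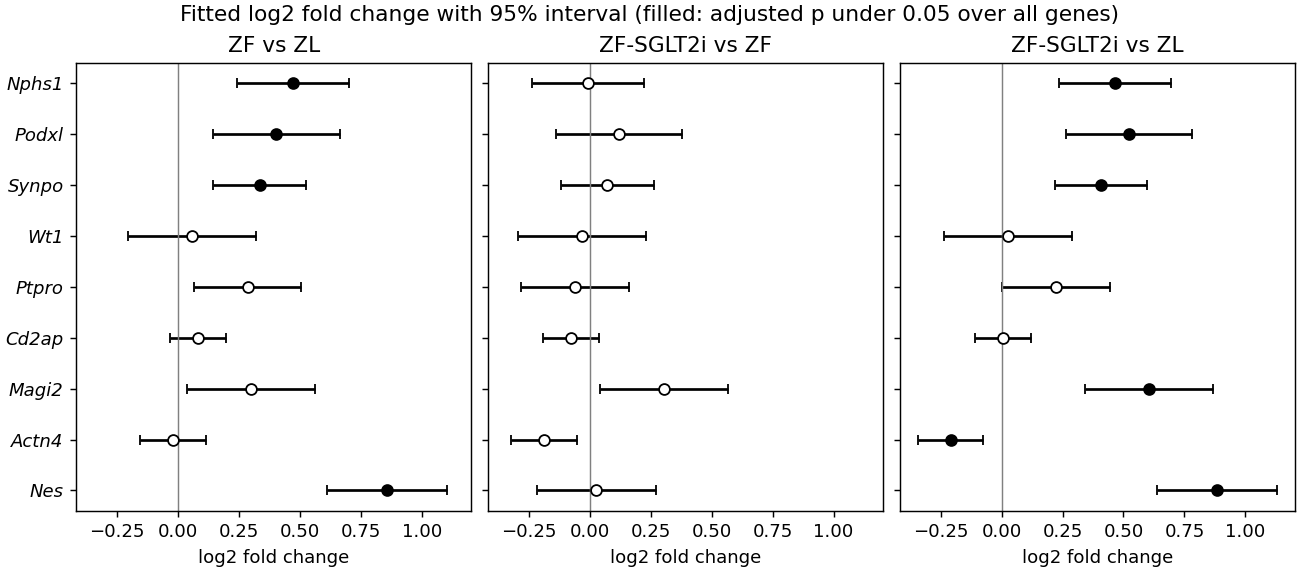
Fitted log2 fold changes of the 9 genes with 95% intervals in the 3 comparisons, filled where the limma adjusted p over all genes is under 0.05. Nes, Nphs1, Podxl and Synpo are filled for ZF vs ZL, none is filled for ZF-SGLT2i vs ZF, and Magi2 and Actn4 join them, in opposite directions, for ZF-SGLT2i vs ZL.

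Between ZF-SGLT2i and ZL rats, 6 of the 9 genes were called, 5 higher (Nes, Magi2, Podxl, Nphs1 and Synpo) and 1 lower (Actn4), beside 27.4% of all genes tested (12.4% higher and 15% lower). The median log2 fold change was 0.41, against 0.00 over all genes. The values of Nes, Magi2 and Synpo (higher) and of Actn4 (lower) did not overlap, beside 28% of all genes (12.9% higher and 15.1% lower). This comparison shares the ZL rats with the comparison of ZF and ZL and the treated rats with that of ZF-SGLT2i and ZF. Side by side, the fold changes in ZF over ZL and in ZF-SGLT2i over ZL were 0.86 and 0.88 for Nes, 0.47 and 0.47 for Nphs1, 0.40 and 0.52 for Podxl, 0.34 and 0.41 for Synpo, and 0.30 and 0.60 for Magi2.

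The genes did not differ between the groups by the same amount, as was seen when each gene was set against the mean log2 level of the other 8 in the same rat. On that scale, with the ZL mean at 0, Nes was at 0.62 ± 0.076 in ZF and 0.63 ± 0.079 in ZF-SGLT2i (SD, n = 4), above all ZL rats. Nphs1 was at 0.19 ± 0.092 and 0.16 ± 0.025, Podxl at 0.11 ± 0.080 and 0.22 ± 0.090, Synpo at 0.03 ± 0.062 and 0.09 ± 0.035, and Ptpro at -0.03 ± 0.027 and -0.12 ± 0.086. Wt1 was at -0.28 ± 0.13 and -0.34 ± 0.090, Cd2ap at -0.25 ± 0.16 and -0.36 ± 0.12, and Actn4 at -0.37 ± 0.22 and -0.60 ± 0.16. Magi2 was at -0.01 ± 0.14 in ZF and 0.31 ± 0.15 in ZF-SGLT2i. These are descriptions with no test.

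**Figure D3:**
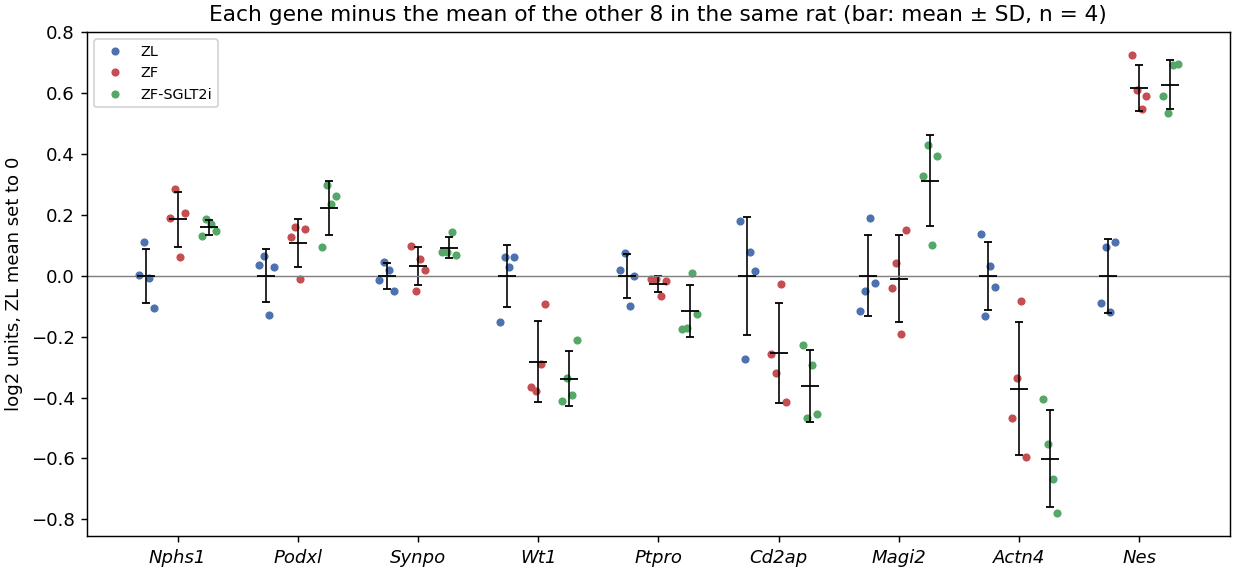
Level of each gene relative to the mean log2(value + 1) of the other 8 genes in the same rat, in log2 units with the ZL mean set to 0, with points for rats and bars for the mean ± SD. Nes lies between 0.54 and 0.73 in the ZF and ZF-SGLT2i rats, and Wt1, Cd2ap and Actn4 lie below 0 in all of them.

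The ratio of Wt1 to Nphs1 within a rat was 0.206 ± 0.018 in ZL (0.186 to 0.228), 0.154 ± 0.017 in ZF (0.136 to 0.172) and 0.151 ± 0.0094 in ZF-SGLT2i (0.145 to 0.165). The ZL range lay above both others, which overlapped. For Nes to Nphs1 the ratio was 1.03 ± 0.10 in ZL, against 1.34 ± 0.079 in ZF and 1.37 ± 0.075 in ZF-SGLT2i. A ratio within a rat does not depend on the scaling between libraries, and it shows unequal differences and not which of its genes differed.

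Within the groups, 7 of the 9 genes (all except Cd2ap and Actn4, a division made after the values were seen) rose and fell together from rat to rat. After the group means were taken off, the 21 pairs of these genes had Pearson correlations of 0.57 to 0.94 over the 12 rats, with a median of 0.84. Podxl and Ptpro were the closest pair (0.94), and Ptpro and Magi2 the least close (0.57). Nphs1 had a correlation of -0.22 with Cd2ap and -0.10 with Actn4. The points share their library and its scaling, and these are descriptions.

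ZL rat 2 was the highest ZL rat in 7 of the 7 genes, and ZF rat 4 and ZF-SGLT2i rat 2 were the lowest of their groups in 7 of 7. ZF rat 5 was the highest in 6 of 7 and ZF-SGLT2i rat 6 in 5 of 7. ZL rat 2 also had the most reads of all 12 rats (12210257), while ZF rat 4 and ZF-SGLT2i rat 2, which were low, had the most reads of their groups (11191377 and 10293049). Averaged over the 9 genes, the deviation from the group mean was 0.19 in ZL rat 2, -0.17 in ZF rat 4 and -0.16 in ZF-SGLT2i rat 2 on the log2 scale.

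**Figure D4:**
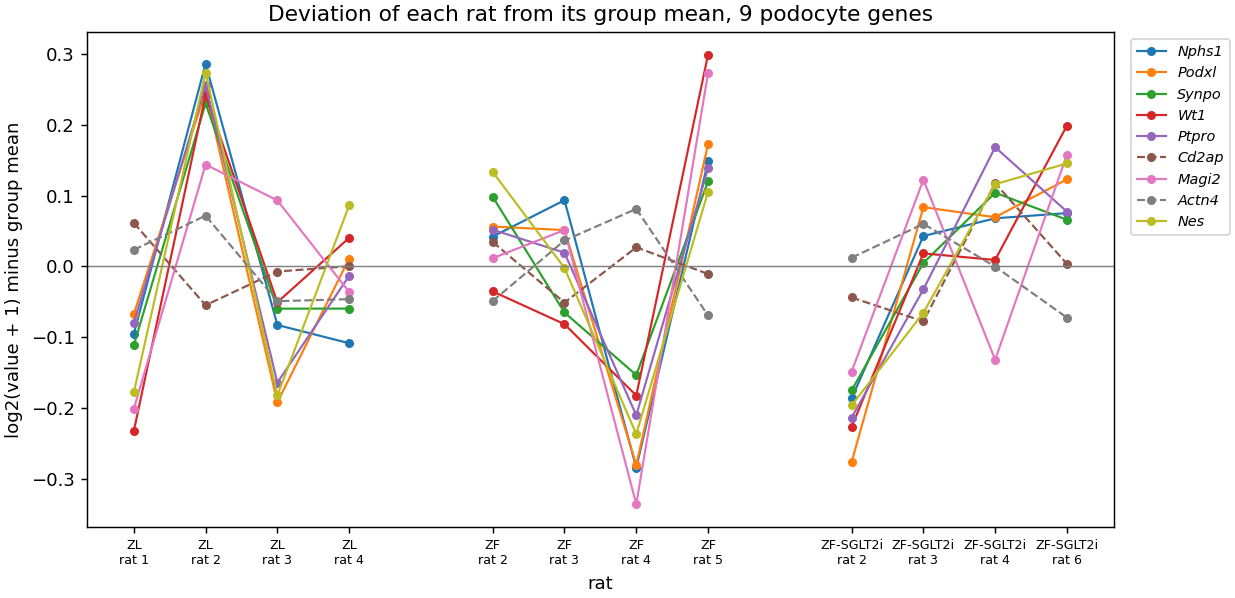
Deviation of log2(value + 1) from the group mean in each of the 12 rats, with a line for each gene and dashed lines for Cd2ap and Actn4. The solid lines peak together in ZL rat 2 and dip together in ZF rat 4 and ZF-SGLT2i rat 2, while the dashed lines lie nearer to 0 in these rats (Actn4 is also at its ZL peak in ZL rat 2).

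The tested genes most like the 9 genes over the 12 rats, measured by the Pearson correlation with the mean of their standardized log2 values, were RGD1305645 (0.95), Serpinb6 (0.95), Mgat5 (0.95), Ppm1l (0.94), Plat (0.94) and Cldn5 (0.94). After the group means were taken off, the correlations were 0.93, 0.96, 0.87, 0.91, 0.86 and 0.89 in that order. Serpinb6 encodes a protease inhibitor and was at 36.3 ± 3.28 CPM in ZL, 50.7 ± 4.83 CPM in ZF and 51.0 ± 3.76 CPM in ZF-SGLT2i. Cldn5, a tight junction claudin of endothelium that podocytes also make, was at 21.3 ± 2.77, 32.2 ± 2.69 and 32.0 ± 4.54 CPM.

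A further 58 podocyte genes in 5 lists were examined in the same fit. The table held 50 of them, and 48 passed the filter on low values. In ZF over ZL, 19 were called higher and 3 lower, with a median log2 fold change of 0.15, beside 8.19% of all genes called higher and 10.6% lower. The 22 calls fell to 12 without ZL rat 3 or ZF rat 2 and to 13 without ZL rat 1, ZF rat 3 or ZF rat 5. In ZF-SGLT2i over ZF, 0 were called higher and 1 lower, with a median of 0.02, and in ZF-SGLT2i over ZL 20 were called higher and 4 lower, beside 12.4% and 15% of all genes. With limma, 8 of the 48 had an unadjusted p under 0.05 between ZF-SGLT2i and ZF, beside the 17.2% of all genes given above, and edgeR called 1 and DESeq2 called 3 of them.

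Of 12 other slit diaphragm genes tested, 5 were called higher in ZF over ZL and none lower (median 0.20). Of all genes tested, 8.19% were called higher and 10.6% lower. Crb2, a polarity protein needed for the slit diaphragm, was at 10.5, 13.5, 8.73 and 12.2 CPM in ZL and at 24.4, 22.8, 17.6 and 24.6 CPM in ZF. These groups did not overlap, and the log2 fold change was 0.94 (SE 0.13, limma adjusted p = 0.00052). Kirrel, which encodes the nephrin-binding NEPH1, rose from 25.1 ± 3.01 to 35.1 ± 0.37 CPM (0.48, limma adjusted p = 0.0013). Plce1, a phospholipase whose loss causes nephrotic syndrome, and Tjp1, the junction scaffold ZO-1, were higher by 0.47 and 0.31. In treated rats, Crb2 was at 24.2 ± 1.81 and Kirrel at 36.7 ± 1.72 CPM, and neither was called against ZF.

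Among 13 other cytoskeletal genes, 5 were called higher in ZF over ZL and none lower (median 0.10), beside 8.19% and 10.6% of all genes. Vim, the intermediate filament protein vimentin, which podocytes share with mesangial, vascular and injured tubular cells, was at 64.2, 66.2, 51.5 and 72.4 CPM in ZL and at 184, 120.2, 119 and 111 CPM in ZF. The log2 fold change was 1.04 (SE 0.14, limma adjusted p = 0.00045), and ZF rat 2 was far above its group. Clic5, a chloride channel-like protein that links ezrin to the foot process membrane, rose by 0.54. The motor proteins Myh9 and Myo1e rose by 0.31 and 0.20, and the call of Myo1e was lost in 6 of the 22 alternatives. Myh9 was lower in every ZF-SGLT2i rat than in any ZF rat (1216 ± 21.3 against 1397 ± 65.7 CPM). This log2 difference of -0.20 did not pass with limma (adjusted p = 0.163) and was called by DESeq2.

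In the list of adhesion and basement membrane genes, 3 of 11 were called higher and 2 lower in ZF over ZL (median 0.10), beside 8.19% and 10.6% of all genes. The higher genes included Cd151 (0.21), a tetraspanin partner of laminin-binding integrins, and Dag1 (0.19), which encodes dystroglycan. Their calls were lost in 12 and 13 of the 22 alternatives. The lower genes were Col4a3 and Col4a4, which encode chains of the collagen IV network that podocytes lay down in the glomerular basement membrane, and which some tubular cells also make. Col4a3 fell from 490.0 ± 88.4 to 303 ± 20.0 CPM (-0.68, limma adjusted p = 0.0012).

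Of the 9 genes and the 48 others tested, Col4a4 was the only one called between ZF-SGLT2i and ZF with limma, 2.08% of the 48 beside 3.15% of all genes. It was at 79.0, 90.2, 100.4 and 73.4 CPM in ZL, at 62.6, 61.0, 74.8 and 72.1 CPM in ZF, and at 48.4, 49.1, 51.1 and 46.6 CPM in ZF-SGLT2i. The treated rats were below all other rats, and ZF rat 4 reached into the ZL range. The log2 fold change was -0.33 in ZF over ZL (limma adjusted p = 0.025) and -0.46 in ZF-SGLT2i over ZF (SE 0.093, limma adjusted p = 0.018). The call in ZF over ZL was lost in 6 of the 22 alternatives. Between ZF-SGLT2i and ZF it was not called without ZF rat 4, ZF-SGLT2i rat 3 or ZF-SGLT2i rat 6. Col4a3 differed by -0.13 in this comparison (95% interval -0.36 to 0.09) and did not pass (limma adjusted p = 0.57).

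Of 5 nuclear proteins other than Wt1, 3 were called higher in ZF over ZL and none lower (median 0.29). The shares of all genes tested were 8.19% higher and 10.6% lower. Cdkn1c, the cell cycle inhibitor p57 of resting podocytes, was at 38.3, 44.2, 34.1 and 36.5 CPM in ZL and at 79.0, 72.3, 73.2 and 76.2 CPM in ZF. These ranges were far apart (0.96, SE 0.094, limma adjusted p = 3.2e-05), and in treated rats the mean was 85.2 ± 10.8 CPM. The transcription factor Tcf21 was higher by 0.33 (limma adjusted p = 0.023). Tcf21 was lower in every ZF-SGLT2i rat than in any ZF rat (25.7 ± 2.74 against 31.3 ± 0.95 CPM), which did not pass with limma (-0.28, adjusted p = 0.122).

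Among the 7 remaining markers tested, 3 were called higher and 1 lower in ZF over ZL, beside 8.19% and 10.6% of all genes. Sema3g, a secreted semaphorin, Robo2, a guidance receptor that binds nephrin through an adaptor, and Pdpn, the membrane protein podoplanin, were higher by 0.49, 0.45 and 0.41, and the call of Pdpn was lost in 9 of the 22 alternatives. Mme, which encodes neprilysin and is also abundant in the proximal tubule brush border, fell by 1.76 on the log2 scale (limma adjusted p = 0.0035), from 481 ± 287 to 131 ± 55.2 CPM. Its ZL values ranged from 256 to 877 CPM.

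**Figure D5:**
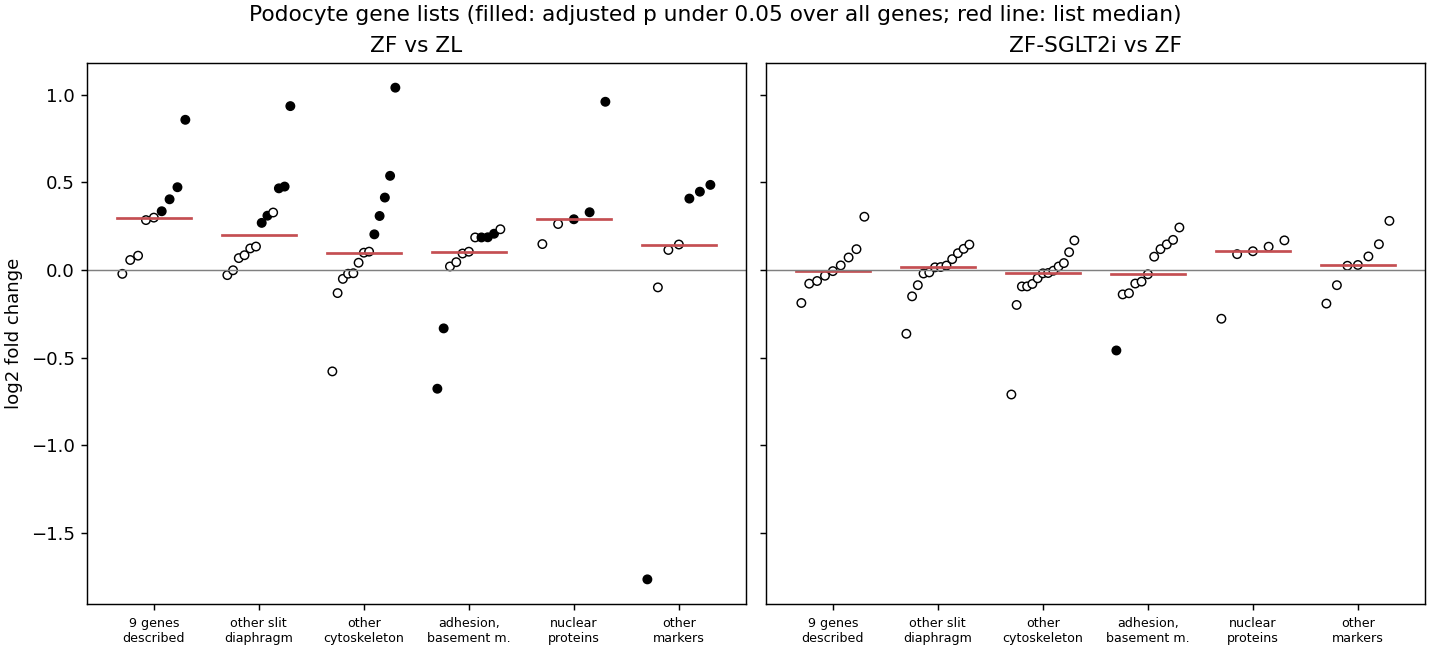
Log2 fold changes of the 9 genes and of the 5 other podocyte lists in ZF vs ZL and in ZF-SGLT2i vs ZF, with a point for each tested gene in order of size, filled where the limma adjusted p over all genes is under 0.05, and a red line at each list's median. The medians lie between 0.10 and 0.30 for ZF vs ZL and between -0.02 and 0.11 for ZF-SGLT2i vs ZF, where Col4a4 is the only filled point.

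Markers of other cells also differed between the groups, and their part in the results above was not tested. The summed level of 6 mesangial and juxtaglomerular genes was 202, 231, 192 and 261 CPM in ZL, 374, 315, 327 and 294 CPM in ZF, and 296, 333, 300.2 and 312 CPM in ZF-SGLT2i, with Pdgfrb the most abundant. In ZF over ZL 3 of the 6 were called, all higher, beside 8.19% of all genes called higher and 10.6% lower. Of 6 genes of glomerular endothelium, led by Kdr, 1 was called higher (Plat), and their sum was 458, 567, 406 and 499 CPM in ZL, 616, 613, 571 and 576 CPM in ZF and 509, 616, 549 and 681 CPM in ZF-SGLT2i. ZL values were below all ZF values in both sums.

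The sum of 6 proximal tubule genes, led by Lrp2, was 19404, 18920.2, 20217 and 17592 CPM in ZL, 14757, 14575, 17501 and 13550.4 CPM in ZF, and 14774, 13089, 13732 and 11341 CPM in ZF-SGLT2i. It was thus lower in both obese groups than in any ZL rat, although none of the 6 was called in ZF over ZL, beside 18.8% of all genes. In ZF-SGLT2i over ZL 3 of the 6 were called, all lower, beside 12.4% of all genes called higher and 15% lower. ZF rat 4, the lowest of its group in 7 of the 9 podocyte genes, had the highest sum of its group, and ZF-SGLT2i rat 2 had the highest of the treated rats. After the group means were taken off, the mean of the 7 podocyte genes had a correlation over the 12 rats of -0.74 with this sum, 0.68 with glomerular endothelium, 0.71 with collecting duct, 0.59 with thick limb and distal tubule and 0.21 with the mesangial sum, all in the same libraries. It was -0.47 with injured tubule, -0.44 with macrophage, -0.37 with fibroblast and pericyte, -0.28 with parietal epithelial and -0.01 with smooth muscle genes. The glomerular endothelium sum includes Plat, which is among the 6 genes most like the 9, so the 0.68 rests in part on that gene.

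The sum of 8 injured tubule genes, led by Spp1, was 463 to 559 CPM in ZL, 724 to 2096 CPM in ZF and 582 to 1316 CPM in ZF-SGLT2i. Of these 8 genes, 6 were called higher in ZF over ZL, beside 8.19% of all genes called higher and 10.6% lower. For 5 parietal epithelial genes, led by Pax8, the sum was 201 to 223, 198 to 223 and 196 to 220.4 CPM, with Cd44 called higher and Pax8 lower. Summed levels overlapped between ZL and ZF for thick limb and distal tubule (led by Umod), collecting duct (Aqp2), fibroblast and pericyte (Pdgfra), smooth muscle (Smtn) and macrophage (Csf1r) genes. In ZF over ZL, 1 collecting duct gene (Scnn1g) and 1 fibroblast gene (Col1a1) of these were called, both higher.

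The collecting duct sum was higher in every ZF-SGLT2i rat (1594 to 1912 CPM) than in any ZL rat (816 to 1355 CPM) or ZF rat (1039.9 to 1496 CPM). Of its 6 genes, 4 were called higher in ZF-SGLT2i over ZL, beside 12.4% of all genes, and 1, Aqp2, over ZF, beside 1.39%. The fibroblast and pericyte sum was lower in every ZF-SGLT2i rat (321 to 386 CPM) than in any ZF rat (447 to 728 CPM) and overlapped that of ZL (379 to 545 CPM). The sum is over 6 genes, of which 5 were tested. Of these 5, 3 were called lower against either group, beside 15% of all genes against ZL and 1.75% against ZF. The part of these differences in the podocyte genes called in ZF-SGLT2i over ZL was not tested. For thick limb and distal tubule, smooth muscle and macrophage genes, the treated sums overlapped those of both other groups. The thick limb and distal tubule sum joined opposite differences. Umod was lower in every ZF-SGLT2i rat (1641 to 2072 CPM) than in any ZL or ZF rat, and Slc12a3 was higher (2812 to 3151 CPM). Of these 5 genes, 1 was called higher and 1 lower against ZL, beside 12.4% and 15% of all genes, and 0 against ZF. Of 5 smooth muscle genes, 1 was called lower against ZF, beside 1.75% of all genes. No marker in these lists was at 0 in all rats, and the 9 podocyte genes had reads in every rat.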

How the data were processed

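RNA from the renal cortex of 12 rats (4 ZL, 4 ZF, 4 ZF-SGLT2i) was analysed from a deposited table of normalized values for 13151 genes. The deposited signal values are reads per gene that the authors scaled to CPM with TMM factors. The submitters' processing notes name Trimmomatic 0.38, Bowtie2, RSEM 1.3.0, edgeR and the rat build rn6. In each rat every value (100%) was a whole multiple of the value of 1 read, with a largest gap of 1.16e-10 reads, so read counts were recovered, between 8824980 and 12210257 per rat. Since RSEM estimates need not be whole, these may be estimates that were rounded before scaling. A gene with few reads has the wider counting error. Libraries of a group differed beyond sampling noise (chi-square per gene 5.43 to 50.1), and pairs across groups were not compared in this way.

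The 11633 genes that reached a value of 1 in 4 or more rats were fitted on log2(value + 1) with limma 3.58.1 in R 4.3.3, using eBayes with its trend option and the 3 groups in 1 fit, and two-sided p-values were adjusted by the Benjamini-Hochberg method. The log2(value + 1) scale understates the change of low genes. Single genes also had an exact permutation test over the 70 assignments of 4 rats against 4. As 22 alternatives, each of the 12 rats was left out, the pseudocount was set to 0.1, the filter was dropped or set to a mean of 10, values were rescaled by median ratios or by quantiles, only the groups compared were fitted, rat number was added as a block, array quality weights were used, and the recovered reads were tested with edgeR 4.0.16 and DESeq2 1.42.0. The limma, edgeR and DESeq2 steps were tested on simulated data.

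The 9 genes, the 5 further podocyte lists and the 10 marker lists were chosen with earlier results of these data known. Named genes are the 9, up to 4 called genes per further list by smallest adjusted p in ZF against ZL or ZF-SGLT2i against ZF, the 6 genes most like the 9, and the most abundant gene of each marker list. Not every gene chosen in this way is reported here. Other called genes of the marker lists (Plat, Cd44, Pax8, Scnn1g and Col1a1) were named after their values were seen, and so was Slc12a3. List genes missing from the table were not analysed here. Promoter windows came from a RefSeq table on GRCr8, and reads, which were not realigned here, could not be separated where similar or overlapping genes share them.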

Additional observations from a re-analysis of the deposited data

Results flagged for a closer look

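The 33 genes reported by rule gave 99 sets of 4 values, and in 9 of these the rat at an end of the set was separated from its nearest neighbour by more than Dixon's 95% limit allows. By chance, about 1 in 20 sets would be, here 4.95. The genes are correlated, so the 9 are not independent.

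ZL rat 2 was far above the others in Nphs1 (173 CPM against 132 to 134), Synpo (157 against 123 to 128), Robo2 (47.0 against 39.7 to 40.7) and Serpinb6 (41.2 against 34.2 to 34.9). ZF-SGLT2i rat 2 was far below the others in Nphs1 (173 CPM against 203 to 207), Podxl (881 against 1119 to 1161) and Cdkn1c (69.0 against 89.9 to 91.1). ZF rat 2 was far above the others in Vim (184 CPM against 111 to 120.2) and Myh9 (1495 against 1353 to 1373), and it also had the highest summed level of injured tubule genes of its group (2096 CPM). The causes were not tested.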

How the results depend on the processing

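Over 73 single-gene results and 22 alternatives, 1434 of 1606 values kept their direction and side of the threshold, 134 lost a call, 11 gained one and 27 turned in sign. Leaving out a rat gave 2 to 6 called of the 9 genes in ZF over ZL (2 without ZL rat 1, ZF rat 2 or ZF rat 5), 0 in ZF-SGLT2i over ZF, and 5 to 6 in ZF-SGLT2i over ZL. For the other podocyte genes the counts were 12 to 22 (12 without ZL rat 3 or ZF rat 2, 13 without ZL rat 1, ZF rat 3 or ZF rat 5), 0 to 1 and 17 to 24. In ZF-SGLT2i over ZF, DESeq2 called 1 of the 9 and 3 of the others, and array weights called 2 of the others.

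The rat numbers did not pair the samples, since over 9 same-numbered pairs across groups, correlations of deviations ran from -0.38 to 0.25, and 2 were over 0.1. With the replicate block, 1 of the 9 and 5 of the other podocyte genes were called in ZF over ZL, 0 of the others in ZF-SGLT2i over ZF, and 2 and 12 in ZF-SGLT2i over ZL. The share of all genes called under the block, or with a rat left out, is not given here. Whether the counts follow that share was not tested. Under the block, Wt1 was at -0.12 in ZF over ZL, 0.00091 in ZF-SGLT2i over ZF and -0.12 in ZF-SGLT2i over ZL, Actn4 was at 0.0093 in ZF over ZL, and Nphs1 at 0.018 in ZF-SGLT2i over ZF.

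The other turns in sign follow, and apart from Actn4 in ZF-SGLT2i over ZL (-0.21 as reported) they were in results that were not called. Quantile normalization gave Actn4 0.17 in ZF over ZL (limma adjusted p = 0.051) and 0.0021 in ZF-SGLT2i over ZL. Array weights gave Nes -0.019 in ZF-SGLT2i over ZF and Cd2ap -0.029 in ZF-SGLT2i over ZL. With a rat left out, ZF over ZL ran from -0.049 to 0.0023 for Actn4 and from -0.042 to 0.14 for Wt1. In ZF-SGLT2i over ZF it ran from -0.10 to 0.056 for Nphs1, -0.099 to 0.067 for Wt1, -0.13 to 0.0086 for Ptpro and -0.052 to 0.092 for Nes, and in ZF-SGLT2i over ZL from -0.052 to 0.11 for Wt1 and -0.035 to 0.030 for Cd2ap. The causes were not tested. With 4 rats a group, wide intervals limit what the comparison of ZF-SGLT2i and ZF can show.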
